A study of Dugesia japonica with 4 samples.

Results

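The features described here are 94 gene models of the planarian Dugesia japonica whose RNA was abundant in sections on 3 Visium arrays and scarce or missing on the fourth, well A. They were chosen by 3 conditions from the values of these same wells. A feature had to carry a DJKW identifier and a unique molecular identifier (UMI, the count of a captured RNA molecule) in at least 20% of the 1216 tissue spots pooled. Its mean level over the 4 wells had to reach 50 CPM, the UMIs of a feature scaled to a fixed total for each well. Its level in well A, with 1 CPM added on both sides, had to be at most 0.25 times its level in each of wells B, C and D. The first 2 conditions left 2778 of the 28999 DJKW features and 38792 features in all, and 94 of those 2778 (3.38%) met the third. The scarcity in well A is therefore how the genes were found and is given as a description, with no test.

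All samples were wild type and came from frozen animals labelled 5 dpa (days post amputation), with the head blastema as the tissue. Cryosections 8 µm thick, cut from front to back and stained with haematoxylin and eosin, were placed on 4 Visium capture areas, the wells A, B, C and D, with 1 library each. The wells form 1 group, and neither the animals behind them nor the body level of each well's sections is given. The stated purpose was to examine gene expression in the space of the blastema, so the tests below compare places within sections.

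A blastema is the outgrowth of new tissue that forms at a planarian wound, fed by the division of adult stem cells called neoblasts, and in it the brain, the eyes and other head structures are rebuilt. Expression along the front-to-back, top-to-bottom and midline-to-margin axes of the body is patterned in planarians, so a cross section at another level or in another orientation meets other cell types. A Visium spot covers a small area that can hold several cells, and polyadenylated RNA is captured and counted per spot. The feature lists pair each identifier with itself and with no gene symbol. Roles of the 94 genes can therefore not be stated, cell type markers could not be looked up, and no sequence could be shown.

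Wells A to D held 180, 201, 402 and 433 tissue spots and 1499569, 2190105, 4395756 and 3752977 UMIs, with median spots of 8028, 10281, 10013 and 7672 UMIs. Spots formed 12 connected groups of at least 5 spots in each well, called sections here. In well B 4 of these held 5 to 10 spots and could be pieces of larger ones, so its number of sections and their range are uncertain. The median section held 14 spots in well A (10 to 18), 17.5 in well B (5 to 22), 34.5 in well C (20 to 43) and 35 in well D (31 to 40). Interior spots, with tissue on all 6 neighbouring positions, numbered 23, 32, 139 and 140 in wells A to D. Well A thus had the smallest median section but lay near well B in this, and whether section size bears on these genes was not tested. All pairs of wells differed by more than sampling noise, with a chi-square of at least 10.4 per degree of freedom. Of 969 distinct barcodes, 211 occurred in at least 2 wells, which in this assay mark the same array position and not a shared cell.

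In well A the 94 genes were close to absent as a set. They supplied 1.14% of its UMIs, against 11.3%, 15.3% and 15.03% of those of B, C and D. The median gene stood at 8.00, 193, 486 and 585 CPM in wells A to D. Over all 2778 features that met the first 2 conditions the medians ran the other way, at 112, 104, 96.7 and 91.9 CPM. In wells B, C and D the 94 genes thus stood above this set. Comparisons below with the other 2684 are therefore not matched in level. The median gene of the 94 had a UMI in 5% of spots in well A and in 47.0%, 76.1% and 62.4% of those on the other arrays. In these sums over spots, fewer cells of a type and less RNA per cell cannot be told apart.

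The genes fell into a larger part with a low level in well A and a smaller part with almost none. In well A, 23 genes had 0 UMIs, which allows at most 2.001 CPM at a limit of 3 counts, and 18 had 1 to 5 UMIs. These 41 genes together had 35 UMIs in well A, against 57003, 192775 and 114419 in B, C and D. Among them, 24 had at least 100 CPM in each of wells B, C and D. Their lowest level outside well A was 73.3 to 1489.7 times the higher of their level in well A and the limit of 3 counts. For the rest of the 41, under 100 CPM in at least 1 of wells B, C and D, this fold was lower. It went down to 1.83 for DJKW.266, with 8 UMIs in well B. It was also under 4 for DJKW.831 and DJKW.9536 (2.05 each), DJKW.5634 (2.97), DJKW.18115 (3.42) and DJKW.26879 (3.88). For all of these genes the counts do not show a 4-fold difference. DJKW.26904, singled out after its values were seen because its ratio was the lowest, had 0 UMIs in well A and 2951, 3251 and 2462 CPM in B, C and D. Its lowest level outside well A was at least 1231-fold higher than the limit of 3 counts in well A. The other 53 genes had over 5 UMIs in well A, and their lowest level outside it exceeded that in well A by a median of 6.49-fold and at most 15.9-fold.

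**Figure D1:**
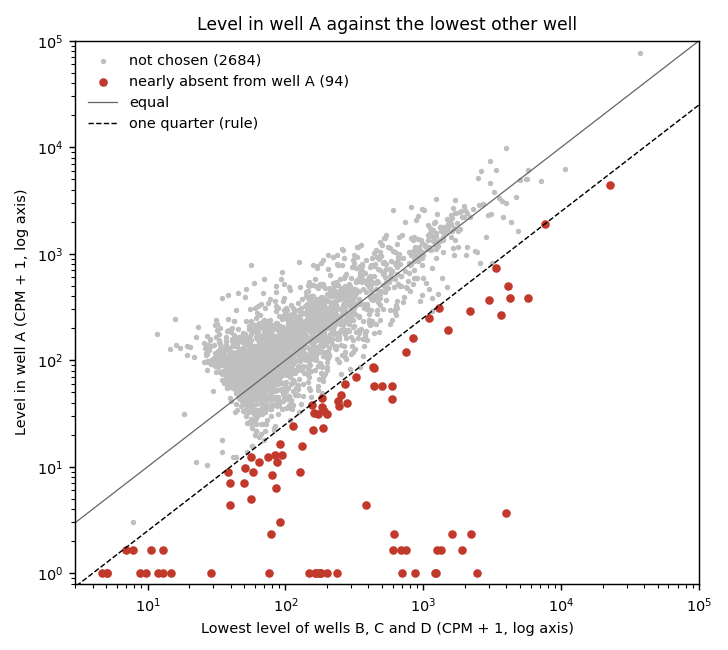
Level in well A (CPM + 1, log axis) against the lowest level of wells B, C and D (CPM + 1, log axis) for the 2778 features that met the first 2 conditions. Red points are the 94 chosen genes, grey points the other 2684, the solid line marks equal levels and the dashed line 0.25 times. The 23 genes with 0 UMIs in well A lie at a value of 1 on the vertical axis, and others follow the dashed line.

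The gene with the most UMIs of the 94 belonged to those with a low level in well A (UMIs are not scaled by gene length, so ranks between genes are of captured UMIs). DJKW.2429 stood at 4381, 22755, 27927 and 34770.5 CPM in wells A to D, a mean that no other of the 94 reached. Without it the genes still supplied 0.700%, 9.07%, 12.5% and 11.5% of the UMIs of wells A to D. DJKW.24241, the next by mean level, stood at 385, 13942, 10610.5 and 5735 CPM. Both were thus detected in all wells, and they ranked wells B, C and D in opposite ways.

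At the threshold itself the genes graded into the others. Just inside were DJKW.599, with 36.7, 154, 184 and 205 CPM in wells A to D, and DJKW.24665, with 1885, 7573, 11334 and 8943 CPM. Just outside were DJKW.28206, with 86.0, 697, 344 and 402 CPM, and DJKW.13040, with 16.7, 68.9, 87.4 and 100.99 CPM. Their ratios of well A to the lowest other well, with 1 CPM added, were 0.2526 for both.

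No other well stood in the place of well A. By the same conditions, 0 features were nearly absent from well B, 0 from well C and 0 from well D. In the opposite direction, 8 features were at least 4 times higher in well A than in each other well, 1 was so in well C and 0 were so in well B or in well D.

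The level of well A was also read within each zone of the sections, from values that the choice of genes had used. Edge spots were 157 of the 180 spots of well A, so counts from them largely repeat that choice. An edge spot is one with at least 1 neighbouring position off the tissue. Among edge spots alone, all 94 genes were lower in well A than in each other well and 83 were at 0.25 times or less, where 3.35% of the 2778 features were. Among interior spots alone, 92 were lower in well A than in each other well and 77 were at 0.25 times or less (background 3.38%), though well A then rests on 23 spots. The highest ratio of well A to the lowest other well was 5.50 in the interior and 0.362 at the edge. How many of all 2778 features were lower in well A than in each other well is not given here. As a share of UMIs the genes took 0.925% of the edge and 2.36% of the interior of well A. The shares were 9.22% and 18.7% in well B, 11.5% and 20.6% in well C, and 11.2% and 19.9% in well D.

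The sections of well A were each low in these genes, though over a wide range. Their shares of UMIs from the 94 genes ran from 0.259% through a median of 1.01% to 3.19%. Those of well B ran from 5.81% through 11.2% to 14.9%, those of well C from 12.5% through 14.4% to 18.7%, and those of well D from 11.3% through 14.2% to 18.2%. The 12 sections of well A therefore did not overlap with any of the 36 others, in a sum over genes chosen for their low level in well A. Gene by gene, the highest section of well A lay below every section of B, C and D for 31 of the 94 genes. The median section of well A did so for 59. With every spot thinned to 2000 UMIs and shallower spots left out, 52 features met the conditions, 50 of them among the 94. After thinning 63 of the 94 still passed the conditions on detection and mean, and 70 were at 0.25 times or less in well A whatever their detection. Sections of a well share a library and are no replicates, so the spread is a description. Among sections of 10 to 18 spots, a range chosen after seeing the data, the 12 of well A ran from 0.259% to 3.19% and the 5 of well B from 5.81% to 13.3%, which describes values the choice of genes had used. A UMI of the gene was found in all 36 sections of wells B, C and D for 63 genes, and in at least 25 for every gene.

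**Figure D2:**
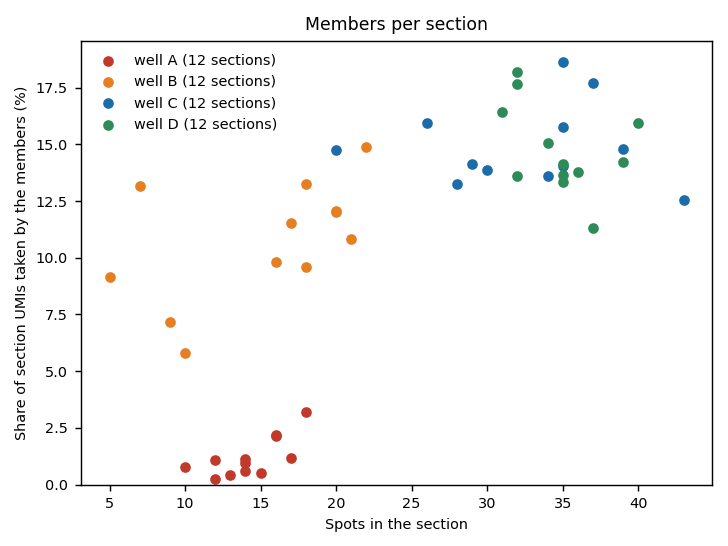
Share of the UMIs of a section taken by the 94 genes (%) against the number of spots in the section, for 12 sections in each well. The sections of well A lie at 3.19% or less and those of the other wells at 5.81% or more.

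Over wells B, C and D the usual order was lowest in B. Well B was lowest for 72 of the 94 genes (76.6%), and for 545 of all 2778 features (19.6%). From highest to lowest, 46 genes had the order D, C, B, which 11% of the 2778 features had. A further 26 had C, D, B (background 8.6%), 11 had C, B, D (14.4%) and 9 had B, C, D, the order of 38.9% of the features, while B, D, C and D, B, C occurred for 1 gene each. The exact Poisson 95% intervals of both neighbouring steps, which cover counting error only, were separate for 77 genes, and for 12.1% of the 2778 features. With 1 library a well no test of the order can be made. The level of well A entered the choice of the genes, and the ratio of D to B did not enter it directly.

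**Figure D3:**
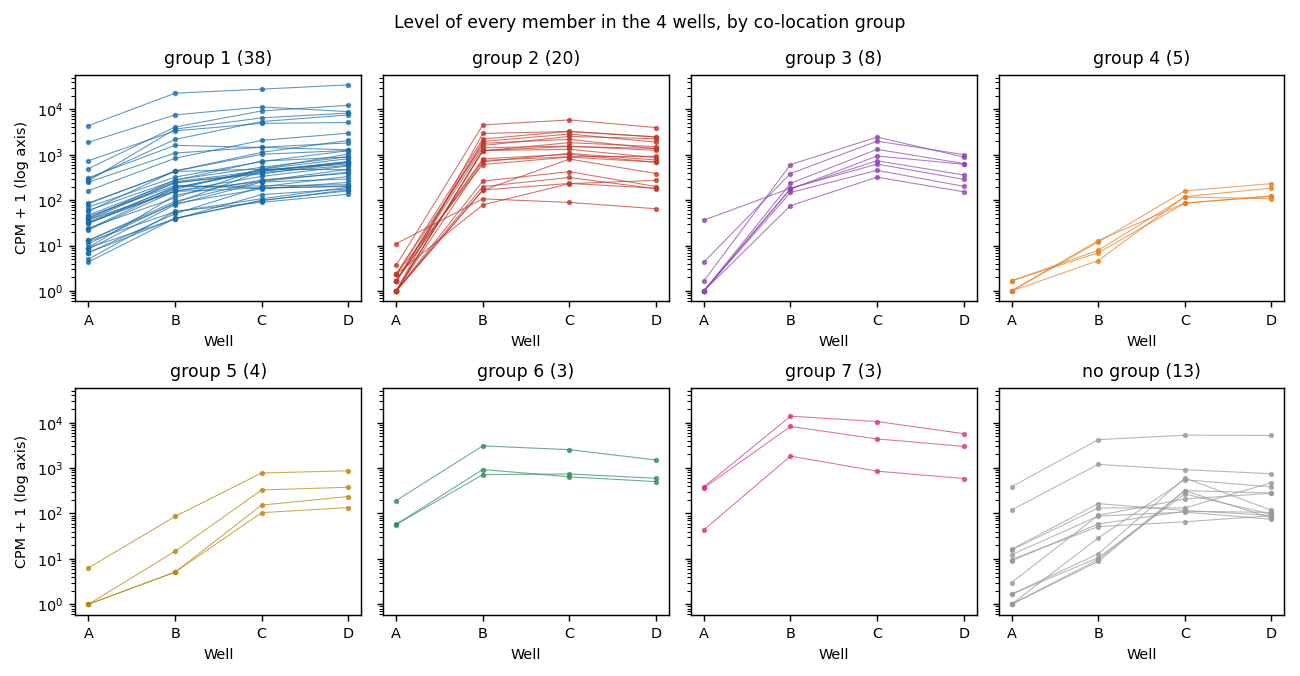
Level (CPM + 1, log axis) of each of the 94 genes in wells A to D, 1 line a gene, divided by the co-location groups described in the text, with the number of genes in brackets. Group 1 mostly climbs from B to D, group 3 peaks in C, groups 4 and 5 are lower in B than in C and D, and group 7 falls from B to D.

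The ratio of well D to well B, with 1 CPM added, had a median of 2.39 over the 94 genes. It was at least 2 for 51 genes, where 3.2% of the 2778 features reached this, and 0.5 or less for 4 genes (background 2.02%). The highest ratios were those of DJKW.9536, with 4.11, 152 and 235 CPM in B, C and D, and of DJKW.266, with 3.65, 119 and 183 CPM. Both had 0 UMIs in well A, so they were close to absent from well B too. The same held for 13 genes in all, which had under 30 CPM in well B (3.65 to 27.9) and at most 1 UMI in well A. They had 84.9 to 605 CPM in well C and 78.9 to 382 CPM in well D. The lowest ratios were those of DJKW.7323, with 42.7, 1835, 854 and 588 CPM in wells A to D, and of DJKW.6593, with 365, 8264, 4385 and 3007 CPM. Both were highest in well B and fell through C to D.

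The order depended in part on the scaling and on the zone. With levels scaled by TMM factors (trimmed mean of M-values, which adjust for a few abundant genes) 82 of the 94 genes had the same order, and well B was lowest for 82. From edge spots alone 73 had the same order, with B lowest for 75, and from interior spots alone 69, with B lowest for 60. The order B, C, D, held by 9 genes over all spots, was held by 22 from interior spots alone. It was held by 11 from edge spots alone and by 8 with TMM factors. Interior spots were 32 of 201 in well B, 139 of 402 in C and 140 of 433 in D. The part of this difference in the order was not tested. Shares over all features under these settings are not given here.

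Within the sections most of the 94 genes were higher inside than at the edge. Counts were summed per well and place and fitted over all features with edgeR's quasi-likelihood test, with the well as a block, and calls were made at an adjusted p under 0.05 (Benjamini-Hochberg). Of the 94 genes, 81 were called higher inside, where 15.6% of all 8636 features tested and 21.8% of the 2684 others that met the first 2 conditions were. At the edge 4 were called higher (13.2% and 12.3%), and 9 were not called. Their median log2 fold change of interior over edge was 1.48, against 0.00 for these others. The called genes higher inside exceeded the edge by a median of 3.10-fold (1.46 to 6.12), and 71 did so by at least 2-fold. Interior spots were also deeper, the ratio of the median UMIs of interior to edge spots being 1.46 ± 0.271 (SD, n = 4), and its part in the result was not tested. Without the well as a block 0 of the 94 were called in edgeR, with 11 higher inside and 0 higher at the edge at an unadjusted p under 0.05. With library totals in place of TMM, and with the interior set 2 steps from the edge (which only wells C and D have), 10 were called higher at the edge. The genes called higher inside were then 74 with library totals and 55 with the interior 2 steps from the edge. In the latter setting the median log2 fold change was 1.06, with 19 of the 94 below 0. That the wells are separate animals is not given, so the p-values concern the spread between these 4 libraries.

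DJKW.4341 had the largest fold towards the inside among the genes to be named. It was at 36.7 CPM inside and 1.54 at the edge in well B (19 UMIs in the whole well, in 3 sections), 652 and 154 in well C, and 705 and 90.2 in well D. In well A it had 0 UMIs. The interior was higher in all 3 wells that had it, and it exceeded the edge by 2.61 ± 0.23 on the log2 scale (SE, edgeR adjusted p = 4.58e-06). DJKW.831 came after it, at 6.88 CPM inside and 3.09 outside in well B, 210 and 51.2 in well C, and 319 and 51.7 in well D (log2 fold change 2.28 ± 0.19, edgeR adjusted p = 2.18e-06). The values of DJKW.831 in well B rest on 9 UMIs in the whole well. These values, and those by place that follow, are CPM scaled by TMM factors. The abundant DJKW.2429 was at 9879 CPM inside and 2657 at the edge of well A, 54989 and 13308 in well B, 52756 and 16155 in well C, and 73631 and 18854 in well D. It was higher inside in every well, well A included (log2 fold change 1.90 ± 0.10, edgeR adjusted p = 6.07e-08). Of the 81 genes called inside, 28 had at least 20 UMIs in well A, and 22 of these were higher inside there.

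The 4 genes higher at the edge were DJKW.13467, DJKW.550, DJKW.6593 and DJKW.24241. DJKW.13467 was at 366 CPM at the edge and 97.0 inside in well A, 4546 and 1011 in well B, 7158 and 2788 in well C, and 7907 and 2275 in well D. Its edge was higher in 4 of 4 wells (log2 fold change -1.79 ± 0.13, edgeR adjusted p = 5.30e-07). DJKW.550 was at 8.59 CPM at the edge of well A with 0 UMIs inside, 49.4 and 32.1 in well B, 77.3 and 51.1 in well C, and 120 and 61.1 in well D (log2 fold change -0.79 ± 0.18, edgeR adjusted p = 3.95e-03). Both genes thus lay toward the edge in wells B, C and D, and DJKW.13467 also in well A. There DJKW.550 had 13 UMIs in all, too few to show a place.

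Across the width of the sections most of the genes leaned to 1 side. The length of the sections ran across the array rows, from low to high row numbers (47 of 48 were longer that way). The side of lower array columns is called left. The body side that left and right stand for is not given. Of the 94 genes, 67 were called higher right, where 9.62% of 8432 features tested and 15.6% of the 2684 others were. On the left 5 were called higher (6.81% and 7.68%). The median log2 fold change of left over right was -1.24. In all 36 sections of wells B, C and D, and in all 12 of well A, the genes took a larger share of UMIs right than left.

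The lean was present at the rim by itself. Among edge spots 73 genes were called higher on the right rim (4.74% of 7539 features tested, 7.3% of the 2684 others). On the left rim 5 were (4.93% and 5.81%), and the median log2 fold change was -1.34. The called genes exceeded the left rim by a median of 2.69-fold (1.61 to 9.62), 65 of them by at least 2-fold. Among interior spots 50 were called higher right (4.98% of 4824 features tested, 5.59% of the others) and 5 higher left (1.35% and 1.79%), with a median log2 fold change of -0.70. The ratio of the median UMIs of left to right rim spots was 1.28 ± 0.264 and that of left to right interior spots 0.745 ± 0.0784 (SD, n = 4). At the rim the ratio of single wells ran from 0.972 in well A to 1.62, and its part in the result was not tested. With the midpoint of the columns in place of their mean, 23 genes were called higher right over the whole width, 27 on the right rim and 7 in the right interior, and 0 of the genes called with the mean were called on the opposite side. The median log2 fold changes were then -0.94, -1.01 and -0.59, with 84, 88 and 63 of the 94 below 0. That setting also leaves out spots, 157 in place of 209 on the right of well D, and the cause of the lower counts was not tested. Without the well as a block edgeR called 0 genes in these 3 comparisons, with 1, 3 and 0 higher right at an unadjusted p under 0.05. Without well D the right interior had 30 genes.

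DJKW.6593 and DJKW.24241 had the largest folds towards the right rim. DJKW.6593 was at 14.7 CPM on the left and 811 on the right rim of well A, 1201 and 25366 in well B, 2977 and 10465 in well C, and 1659 and 8573 in well D. The right rim was higher in 4 of 4 wells (log2 fold change of left over right -3.27 ± 0.49, edgeR adjusted p = 3.20e-03). DJKW.24241 was at 48.2 and 810 CPM in well A, 2252 and 42118 in well B, 6954 and 25018 in well C, and 3173 and 15731 in well D (log2 fold change -3.02 ± 0.37, edgeR adjusted p = 1.02e-03). Over the whole width DJKW.6593 and DJKW.7323 led, the latter with 1.17 CPM left and 76.2 right in well A, 391 and 4086 in well B, 303 and 1757 in well C, and 260 and 1177 in well D (log2 fold change -2.82 ± 0.26, edgeR adjusted p = 5.21e-04). The same genes led inside, with log2 fold changes of -1.86 ± 0.24 for DJKW.7323 and -1.71 ± 0.16 for DJKW.6593 (edgeR adjusted p = 5.76e-04 and 1.47e-04).

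In each of the 3 comparisons of sides 5 of the 94 genes were called higher left. Over the whole width and at the rim this was near the share of all features tested (6.81% and 4.93%). In the interior that share was 1.35%. The genes called higher left in at least 1 of these comparisons were DJKW.1002, DJKW.1764 and DJKW.18111, which were called in all 3, and DJKW.550, DJKW.1661, DJKW.3165 and DJKW.26907. DJKW.1002 was at 1193 CPM on the left and 578 on the right rim in well B, 1188 and 220 in well C, and 745 and 192 in well D, with 56.2 and 28.2 CPM in well A (log2 fold change 1.72 ± 0.22, edgeR adjusted p = 1.33e-03). Its left rim was higher in 4 of 4 wells, but over the whole width of well A it stood at 50.2 CPM left and 50.8 right, and inside at 17.1 left (1 UMI) and 141 right. Of the 3 genes called left over the whole width with at least 20 UMIs in well A, 1 was higher left there. DJKW.26907 was at 232 and 14.7 CPM in well B, 171 and 115 in well C, and 379 and 112 in well D (log2 fold change 1.68 ± 0.36, edgeR adjusted p = 0.0184). DJKW.1661, with 3 UMIs in well A, was at 127 CPM left and 14.5 right over the whole width of well B, 288 and 138 in well C, and 391 and 228 in well D (log2 fold change 1.26 ± 0.28, edgeR adjusted p = 0.0161). DJKW.1764 led inside after DJKW.1002, at 5371 CPM in the left and 2535 in the right interior of well B, 3363 and 1556 in well C, and 2674 and 829 in well D (log2 fold change 1.27 ± 0.17, edgeR adjusted p = 5.76e-04). The counts of 5 on the left moved when a well was left out. Over the whole width they were 3 without well B, 3 without well C and 2 without well D. At the rim there were 2 without well D, and inside 10 without well A and 2 without well C. With the midpoint of the columns in place of their mean they were 1 over the whole width, 3 at the rim and 2 inside. Neither of these 2 was among the 5 called inside with the mean.

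**Figure D4:**
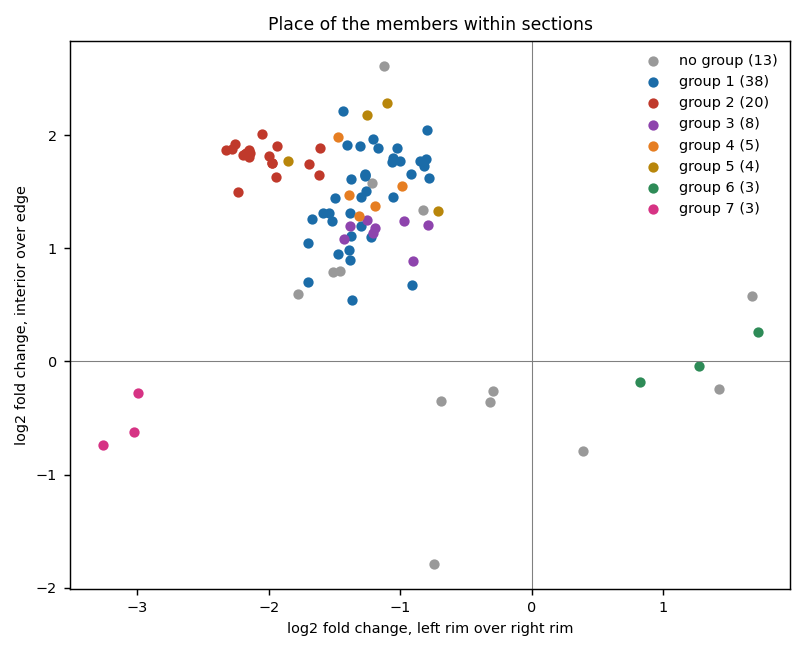
Log2 fold change of interior over edge against log2 fold change of left over right rim for the 94 genes, coloured by co-location group. Most points lie at the upper left, higher inside and on the right rim, while group 7 lies at the lower left and group 6 at the right.

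Taken by quadrant, the right interior held the most of these genes in each well. The 94 genes took 0.316% of UMIs on the left rim, 0.813% in the left interior, 2.94% in the right interior and 1.67% on the right rim of well A, where the left interior holds 6 spots. In well B these shares were 5.23%, 13.4%, 21.9% and 15.9%, in well C 8.68%, 17.4%, 23.4% and 15.5%, and in well D 7.83%, 15.9%, 22.7% and 15.5%. Wells A and B thus had the same order of places, with the right rim above the left interior, and wells C and D had these places in the opposite order. By gene, 56 were highest in the right interior by their mean over wells B, C and D, 38 of them in all 3 wells. Another 23 were highest in the left interior, 11 on the right rim and 4 (DJKW.550, DJKW.1002, DJKW.1661 and DJKW.18111) on the left rim.

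Along the length of the sections few differences were called. The ends were the outer 0.25 of the length on either side, compared with the middle among edge spots only. Of the 94 genes 4 were called higher at the ends (0.646% of 7427 features tested, 0.894% of the 2684 others). In the middle 3 were called higher (0.39% and 0.559%), and 87 were not called. DJKW.13467 had the largest fold to the ends, with 607 CPM there and 162 in the middle in well A, 8346 and 1686 in well B, 12333 and 2655 in well C, and 15342 and 1124 in well D. The ends were higher in 4 of 4 wells (log2 fold change 2.55 ± 0.28, edgeR adjusted p = 6.27e-03). DJKW.28552 followed, at 64.0 and 25.6 CPM in well B, 122 and 35.5 in well C, and 221 and 76.6 in well D (log2 fold change 1.51 ± 0.21, edgeR adjusted p = 0.0165). The other 2 were DJKW.1764 and DJKW.19637.

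In the middle the leading gene was DJKW.26907, at 24.02 CPM at the ends and 305 in the middle of well B, 27.9 and 312 in well C, and 94.0 and 500.3 in well D. In well A it was at 2.67 and 27.6 CPM, the same way round (log2 fold change -3.08 ± 0.22, edgeR adjusted p = 9.79e-04). The others were DJKW.831, at 2.29 and 5.12 CPM in well B, 28.7 and 90.1 CPM in well C and 38.8 and 81.4 in well D (-1.36 ± 0.21 on the log2 scale, edgeR adjusted p = 0.0431), together with DJKW.4341. With 9 UMIs of DJKW.831 in the whole of well B, its direction there is uncertain. The counts for the ends and the middle rested on single wells. They were 26 and 5 without well A, 1 and 1 without well B, 0 and 1 without well C, and 1 and 2 without well D, and without well C 11 genes had an unadjusted p under 0.05 towards the ends in edgeR.

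Between the 2 ends no difference was called. The spots at low and at high array rows of each section gave 0 of 94 genes in either direction in edgeR (0% of 8394 features tested) and 0 with DESeq2. At an unadjusted p under 0.05 edgeR had 29 genes higher at low rows and 10 higher at high rows, 39 of the 94 in all, where 4.43% of the features tested had such a p, and the lowest adjusted p among the 94 was 0.36.

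Neighbouring spots resembled each other in these genes more than in most. Excess Moran's I, which is above 0 where neighbours are alike, had medians of 0.159, 0.233 and 0.241 in B, C and D (81 genes measured in B). The other features that met the conditions on detection and mean had medians of 0.0405, 0.0373 and 0.0324. They were not matched in level to these genes, and the part of level in the difference was not tested. The values of Moran's I are a description, and RNA that spreads between spots also raises them.

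The genes were then grouped by where in the sections they were high. Over 999 spots of wells B, C and D with at least 1000 UMIs, log values centred per well were correlated between genes, and genes were joined down to a mean Pearson r of 0.4. The median r was 0.169 between pairs of the 94 genes and 0.0313 between pairs of the others, which were not matched to the 94 in level. All spots of a well share a library and differ in depth, so r is a description. The same spots entered the comparisons of places, so genes of a group tend to share their calls of place. Counts of such calls per group therefore describe the groups and are no separate result. The shares over all features are those given above for each comparison. This gave 7 groups of at least 3 genes, with 81 genes in all, and 13 genes outside them. A cut at 0.5 split the largest group of 38 (sizes 25 and 12 with 20 and 8 unchanged in size), and a cut at 0.3 enlarged the second to 28.

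**Figure D5:**
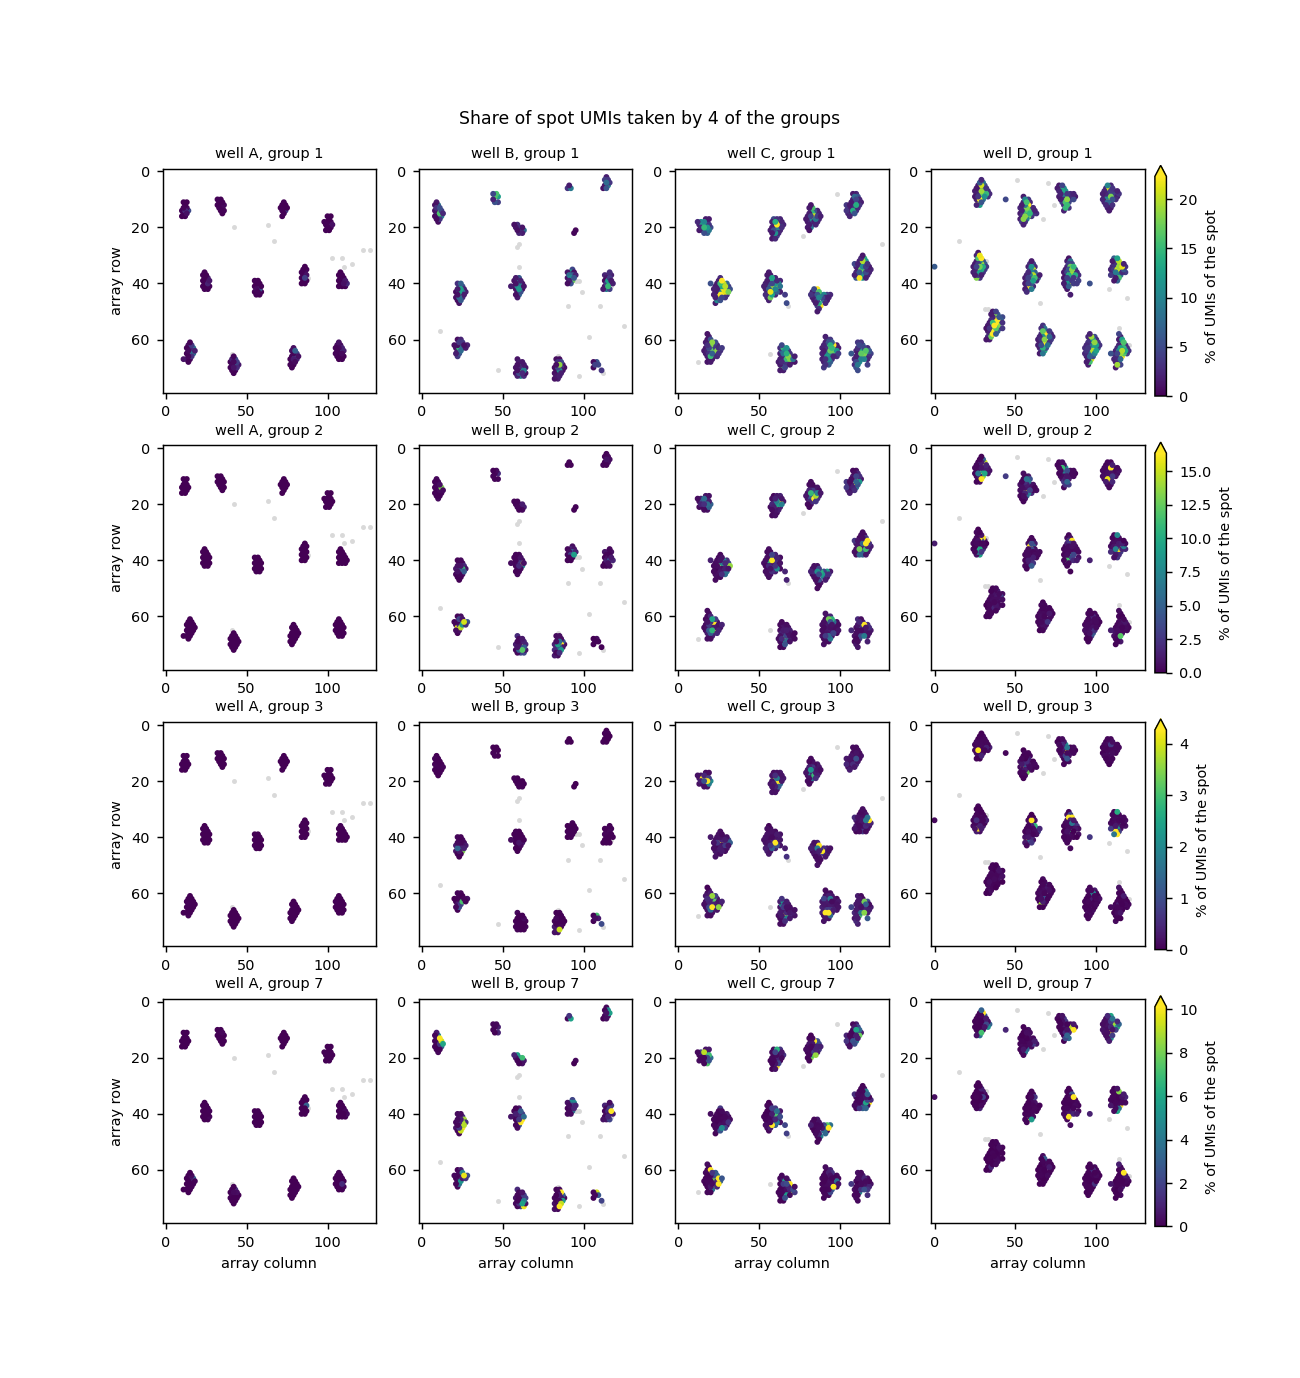
Share of the UMIs of each spot taken by groups 1, 2, 3 and 7 (rows) in wells A to D (columns), at the array row and column of the spot. Colour scales end at the percentile 98 of a group's spots, at 22.3%, 16.3%, 4.27% and 10.1%, and spots under 1000 UMIs are grey. Group 1 is widespread inside, groups 2 and 3 sit in a few spots of a section, group 7 lies along the right rim, and well A is dark throughout.

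Group 1 holds 38 genes, with a median r of 0.559 within it, and DJKW.2429, DJKW.599 and DJKW.24665 among them. Its shares of UMIs were 0.965%, 5.24%, 8.13% and 10.0% in wells A to D, and 34 of its genes had the order D, C, B. All 38 were called higher inside, 37 higher on the right rim and 29 higher in the right interior. It made up most of what well A had of the 94 genes, since 14470 of the 17066 UMIs of the genes in well A belonged to it and 1 of its genes had at most 5 UMIs there. In well B its share was 11.99% in the section where it was highest, which has 7 spots, and 5.98% in the next.

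Group 2 holds 20 genes, with a median r of 0.727, and 19 of them had at most 5 UMIs in well A. Together they had 32 UMIs there, against 2.41%, 3.22% and 2.38% of all UMIs in B, C and D. DJKW.4714, singled out afterwards as the most abundant of them, had 4 UMIs in well A and 4555, 5862 and 3974 CPM in wells B, C and D. The ratio of well D to well B had a median of 1.03, so this group did not share the low level of well B. All 20 were called higher inside and on the right rim, and 18 in the right interior, where they took 8.00%, 6.32% and 3.92% of UMIs in B, C and D. They were concentrated, with 66.8% of their UMIs in the top 104 of 1036 spots, against 45.4% for group 1.

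Group 3 holds 8 genes (DJKW.3029, DJKW.8417, DJKW.16012, DJKW.18022, DJKW.26900, DJKW.26901, DJKW.26903 and DJKW.27251), all with the order C, D, B. Their shares of UMIs were 0.198%, 0.884% and 0.415% in B, C and D, and they had 59 UMIs in well A, 53 of them from DJKW.26900. The top 104 spots held 75.4% of their UMIs, the highest concentration of the 7 groups. All 8 were called higher inside, 4 on the right rim and 0 in either interior, with 0.09 as the median log2 fold change of left over right interior. In well B 39.4% of their UMIs came from 1 section, without which the share was 0.142%.

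The genes of groups 4 and 5 were lower in well B than in C and D. The median ratio of D over B, with 1 CPM added to each, was 17.6 for group 4 and 26.0 for group 5. They hold 8 of the 13 genes under 30 CPM in well B, and DJKW.16351 of group 5 stood at 84.9 CPM there. Group 4 (DJKW.266, DJKW.5634, DJKW.9540, DJKW.16352 and DJKW.18115) had 2, 86, 2483 and 2861 UMIs in wells A to D. Of the 86 in well B, 80 lay in 1 section of 18 spots, while 7 of the 12 sections there had 0. Group 5 (DJKW.831, DJKW.9536, DJKW.16351 and DJKW.23146) had 8, 234, 5986 and 6070 UMIs in wells A to D, and in well B 83 of its 234 UMIs lay in the same section. For group 4 that section had 0.0348% of its UMIs and the next section of well B 0.000798%, where the 12 sections of well C ran from 0.0162% to 0.0945% and those of well D from 0.0176% to 0.160%. All 9 genes were called higher inside, and 5 of the 9 on the right rim.

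Group 6 (DJKW.1002, DJKW.1764 and DJKW.18111) was called higher left in all 3 comparisons of sides, but with the midline at the midpoint not in the interior. In well A it did not lean left throughout, with 0.0147% of UMIs in the left interior and 0.0286% in the right, against 0.0439% and 0.0184% on the left and right rim. Its shares of UMIs were 0.0305%, 0.473%, 0.393% and 0.260% in wells A to D, and its 3 genes were called neither inside nor at the edge. Group 7 (DJKW.6593, DJKW.7323 and DJKW.24241) had the highest r, 0.780, and was the only group whose genes all had the order B, C, D. It took 0.0793%, 2.40%, 1.58% and 0.933% of UMIs in wells A to D. On the right rim its shares were 0.177%, 6.52%, 3.35% and 2.16%, and on the left rim 0.00717%, 0.420%, 1.03% and 0.499%. The right rim was higher in every well, by a larger ratio in wells A and B than in wells C and D.

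Many of the 94 genes have neighbouring identifiers. Another of the 94 lay within 10 identifier numbers for 37 of them (39.4%), while 5.70% of the 2684 others had one of the 94 that near. They form 14 runs, the longest of 5 genes each, DJKW.14302 to DJKW.14309 and DJKW.26900 to DJKW.26907. The first lies wholly in group 2, with 0 to 2 UMIs a gene in well A. The second has 3 genes in group 3, 1 in group 2 and DJKW.26907 in none. In 7 of the 14 runs all genes belonged to the same group, and the 38 pairs within 10 numbers had a median r of 0.650 (-0.0933 to 0.832). Whether identifier numbers follow genome position, and whether neighbours share sequence so that reads could be split between them, is not given in the sources used here, so the levels of single genes in these runs are uncertain.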

How the data were processed

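The deposited values are UMI counts, not normalized, that Space Ranger 2.0.1 wrote for tissue spots, per the file headers. Seurat stands in the submitters' processing notes without a step. Neither the build nor the annotation is given in the sources used here. CPM, zones, sections and sums per place were computed from these counts, and the 94 genes and all lists were chosen with earlier results of these data known. The test was the quasi-likelihood F-test of edgeR 4.0.16 under R 4.3.3, after filterByExpr by place and TMM scaling, with p-values adjusted over all features tested. The well was a block because a well's sections hold both places. Standard errors divide the log2 fold change by the root of F. Intervals and limits cover counting error only.

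Genes named are the 2 of highest mean CPM, the 2 just inside and 2 just outside the threshold, and the 2 of highest and of lowest ratio of well D to B. The 2 of largest fold per direction among called genes with 1 direction in wells B, C and D are also named. Others are said to be singled out afterwards, are the members of a small count, or list a group. Moran's I needed a UMI in 10% of a well's spots. On simulated data, edge against interior recovered 90% of 2-fold and 41% of 1.5-fold changes (8636 genes, 2 false calls). Between the rims 97% and 47% were recovered (7539 genes, 11 false calls) and between ends and middle 81% and 33% (7427 genes, 5 false calls). Alternatives covered scaling, DESeq2 1.42.0, the filter, the block, each well left out, section size, the midline, the ends and the depth of the interior. All columns of the matrices belong to the 4 wells.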

Additional observations from a re-analysis of the deposited data

Results flagged for a closer look

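In 16 sets of values over the 4 wells, the summed ratio between places among them, 0 had a well far from the other 3, where chance gives about 0.8. The difference of well A itself, by which the genes were chosen, was not among the sets.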

How the results depend on the processing

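The section sizes at 10 to 18 spots and the cuts of the co-location groups were added after seeing the data. No called gene was called the other way under any alternative. Without the replicate block 0 of the 94 genes were called in any of the 6 comparisons in edgeR, with at most 11 at an unadjusted p under 0.05, and the cause was not tested. The pairing of places is by design, since both lie on the same sections. The number of genes meeting the conditions was 52 with spots thinned to 2000 UMIs (50 of them among the 94) and 64 to 133 under the other settings, the highest without well B. Genes higher at the edge numbered 10 with library totals and 10 with the interior 2 steps from the edge, and those higher inside 74 and 55. With the midline at the midpoint, 1 was higher left and 23 right, 3 and 27 at the rims, and 2 and 7 inside. Neither of the 2 higher left inside was among the 5 called with the mean. In the interior 11 were higher left with totals and 2 with DESeq2. Genes higher at the ends numbered 2 with DESeq2, 24 without the low-count filter and 13 with wider ends, and those higher in the middle 1 with DESeq2 and 14 without the filter. Without the filter 22 were higher at low and 9 at high rows. Leaving out 1 well gave 68 to 82 genes inside and 3 to 4 at the edge, 2 to 6 left and 49 to 70 right, 2 to 5 on the left and 56 to 80 on the right rim. It gave 2 to 10 in the left and 30 to 56 in the right interior, 0 to 26 at the ends, 1 to 5 in the middle, 0 to 5 at low rows and 0 to 1 at high rows. The median log2 of all features moved with library totals to -0.40 (interior over edge), 0.29 (left over right), 0.20 (rims) and 0.27 (interiors). For named genes the alternatives gave 200 values, of which 161 passed the threshold and 39 missed it with the same direction, 20 of these without the replicate block. Leaving out well A was not run for the choice of genes, which needs it. Interior values of well A rest on 23 spots and 222105 UMIs.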
